A study of Mus musculus with 11 samples.

Results

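The C/D box small nucleolar RNAs (snoRNAs) described here were the 70 entries, of 3859 small RNA genes in the table, whose mouse symbol began with Snord. Snord73a and the imprinted Snord107, Snord115, Snord116 and Snord64 entries were left out, which removed 5 names. A further 24 entries carried the human-style upper-case name SNORD and were not members. The rule used names and no measured value, though it was set with earlier results of these data known.

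C/D box snoRNAs are short nucleolar RNAs that carry a C box near the 5′ end and a D box near the 3′ end. Bound by fibrillarin, Nop56, Nop58 and Snu13, most of them base-pair with ribosomal RNA (rRNA) and direct the methylation of a ribose there, and a few are needed for cleaving the rRNA precursor instead. In mammals most lie in introns of host genes, many of which encode ribosomal proteins or translation factors, and are released as the spliced intron is trimmed.

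Mouse embryonic fibroblasts (MEF) were driven towards induced pluripotency and their small RNA was sequenced day by day. They were labelled Mbd3f/-, meaning that Mbd3, which encodes part of the NuRD chromatin remodelling complex, was floxed on 1 chromosome and deleted on the other. A cassette induced by doxycycline supplied Oct4, Klf4, Sox2 and Myc. Single libraries stood for MEF before doxycycline, for each of days 1 to 8 and for established induced (iPSC) and embryonic (ESC) stem cells, 11 libraries in all. The label of the ESC library reads Mbd3f/- while its column was named V6.5, so its genotype is unclear. With no second library of any stage, a p-value over the course measures how far 9 libraries scatter around a trend, and the variation between cultures was not measured. Per the labels, cells of days 3 to 8 and of both lines grew on irradiated human foreskin fibroblasts and those of MEF, day 1 and day 2 did not. The medium also changed during the course, from serum to serum replacement, LIF being present throughout and inhibitors of MEK and GSK3 being added, and the sources differ on when the inhibitors were added. Feeders, medium and time therefore cannot be told apart.

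The label of rRNA methylation guides held for most members by the known role of the human snoRNA of the same number. By that role, 32 members guide methylation of 28S rRNA, 16 of 18S rRNA, Snord32a of both, and Snord71 and Snord96a of 5.8S rRNA. Another 7 act in cleavage or acetylation of the rRNA precursor, both called processing here. These are Snord118 (U8), Snord13 (U13), Snord22 (U22) and the U14 copies Snord14a, Snord14c, Snord14d and Snord14e. Snord7, Snord8 and Snord67 guide methylation of the spliceosomal U6 snRNA, and 9 members were not assigned a role. In the annotation 67 of the 70 lay within a host gene on the same strand. Of these, 35 overlapped no annotated exon of that gene, called an intron here, and 32 overlapped an exon of at least 1 host transcript. Snord118, Snord104 and Snord13 had no host gene. Hosts were protein-coding for 51 members and noncoding for 16.

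The sequences below belong to the members on which the time course and the host gene comparisons turned. They were taken from GENCODE vM21 transcripts (GRCm38), written 5′ to 3′ as DNA, with capitals marking a C box (TGATGA, in the first 25 bases) and a D box (CTGA, in the last 15 bases). The U14 copies Snord14c (chr9:40803583-40803668), Snord14d (chr9:40803995-40804080) and Snord14e (chr9:40804748-40804837) lie on the + strand of Hspa8, which encodes a chaperone, each overlapping an exon of a host transcript. Snord14a lies in the ribosomal protein gene Rps13 (chr7:116333171-116333257, - strand).
Snord14c: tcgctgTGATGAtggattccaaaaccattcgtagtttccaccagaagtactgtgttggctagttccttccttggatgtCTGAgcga
Snord14d: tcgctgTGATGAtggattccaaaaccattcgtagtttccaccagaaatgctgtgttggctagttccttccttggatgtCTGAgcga
Snord14e: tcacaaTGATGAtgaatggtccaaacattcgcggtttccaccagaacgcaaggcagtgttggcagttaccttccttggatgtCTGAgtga
Snord14a: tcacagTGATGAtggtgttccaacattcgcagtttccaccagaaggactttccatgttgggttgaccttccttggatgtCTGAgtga
All 4 copies share a run of 13 bases, gtttccaccagaa, and a run of 19 bases, ccttccttggatgtctgag, that spans the D box. Snord14c and Snord14d were 97.7% identical, so reads of these copies may have been split between them, and they are best read as a single signal.

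Snord95 (chr11:48803139-48803206) and Snord96a (chr11:48802032-48802112) lie on the + strand within Rack1, a gene for a protein of the small ribosomal subunit, and are shown because they followed different courses from the same host. Snord92 (chr17:71631281-71631365, + strand, intron of Wdr43) and Snord118 (chr11:69073427-69073561, + strand, no host gene) are shown because their slopes passed the test. Snord52 (chr17:34950952-34951017, - strand, in the noncoding host 1110038B12Rik) departed furthest below its neighbouring days on day 4. Snord93 (chr5:23852210-23852280, + strand, intron of the noncoding host 2700038G22Rik) was the most abundant member.
Snord95: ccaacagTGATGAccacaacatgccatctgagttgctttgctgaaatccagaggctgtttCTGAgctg
Snord96a: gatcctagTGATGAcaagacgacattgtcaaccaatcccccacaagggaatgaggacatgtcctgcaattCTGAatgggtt
Snord92: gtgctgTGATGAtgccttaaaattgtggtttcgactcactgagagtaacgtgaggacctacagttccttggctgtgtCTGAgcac
Snord118: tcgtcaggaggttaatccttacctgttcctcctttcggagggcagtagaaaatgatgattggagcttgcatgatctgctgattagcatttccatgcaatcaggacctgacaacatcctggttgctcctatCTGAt
Snord52: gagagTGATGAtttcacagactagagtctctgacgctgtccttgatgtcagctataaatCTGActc
Snord93: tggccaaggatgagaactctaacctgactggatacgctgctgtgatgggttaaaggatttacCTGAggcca
Of the 70 members, 43 held the C box letters in that window, 65 the D box letters and 42 both, which is 60% of the members and 0 of the 38 H/ACA box snoRNAs of the table. Snord118 and Snord93 above lack the C box letters in the window.

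All 70 members passed the filter on low values, and 68 were above 0 in every library. Values are FPKM, fragment numbers corrected for transcript length and for the mapped fragments of the library. The low values followed an effective length that, under an assumed fragment length of 200 ± 80 bases, is far smaller than the annotated one, so a single read of such a short RNA counts for many FPKM. The steps between low values implied 11435900 mapped reads for MEF, 21569100 for day 7 and numbers between these in the other libraries. A single read was then worth 49.6 FPKM in MEF and 26.3 FPKM on day 7 for an RNA of 80 bases. In all, 49 members had 20 or more implied reads in every library and 15 had fewer than 10 in some library. The identity of the cells was checked on miRNA markers. The summed FPKM of 10 pluripotency miRNAs was 19757 in MEF, 43901700 on day 8, 14631900 in iPSC and 11308900 in ESC, with 4 of the 10 at 0 in MEF and 1 at 0 in each line. The 8 fibroblast miRNAs summed to 64057000 in MEF, 13010200 on day 8, 10200700 in iPSC and 30441900 in ESC. Blood cell miRNAs (4 found) were at 258217 in MEF, 6018 on day 5 and 563789 in iPSC. Muscle miRNAs (3 found) were at 141390 in MEF, 29693 on day 1, 2008 on day 3 and 254 on day 8, lower on each day than on the one before up to day 7, and their part in the results was not tested.

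By summed FPKM, the C/D box snoRNAs as a group were lowest in MEF, higher on day 1 and highest in the established lines. Their summed FPKM was 1962150 in MEF and 7440600 on day 1. From there it went to 6802850, 5151590 and 4115640 on days 2, 3 and 4. On days 5 to 8 it was 5337840, 5360800, 4167400 and 7572490, and it was 14255900 in iPSC and 10572900 in ESC. MEF was the lowest of the 11 libraries for 43 of the 70 members (61.4%, against 24.3% of all transcripts tested). With libraries scaled to the upper quartile it was the lowest for 13 members (18.6%, against 11.2%). With scaling to the member sum it was the lowest for 15 (21.4%, against 9.44%). The highest library within the course was day 8 for 26 members, day 1 for 23 and MEF for 1. The highest library was not counted over all transcripts, of which 66.7% were higher on day 8 than on day 7. As a share of the implied reads of the table, the members took 0.549% in MEF, 1.71% on day 1 and 1.08% on day 4. They took 2.71% on day 7, 4.17% on day 8, 3.76% in iPSC and 2.94% in ESC. By this measure day 8 stood above both lines. This share rests on what the other small RNAs did, most of which are miRNAs. The miRNA genes had sums of 247302000 FPKM in MEF and 310909000 on day 1, and of 124691000 and 148163000 on days 7 and 8.

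**Figure D1:**
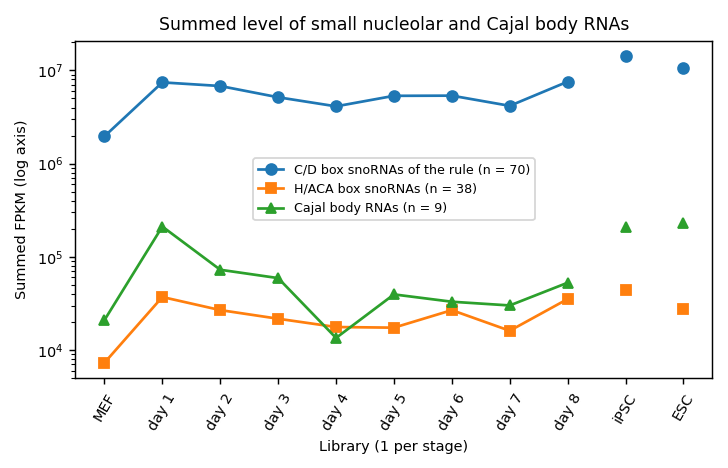
Summed FPKM (log axis) of the 70 C/D box snoRNAs, 38 H/ACA box snoRNAs and 9 Cajal body RNAs in each of the 11 libraries. The C/D sum was 1962150 in MEF, 7440600 on day 1, 4115640 on day 4 and 14255900 in iPSC.

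H/ACA box snoRNAs, which guide pseudouridylation, and Cajal body RNAs, which guide modification of spliceosomal RNAs, gave smaller sums. The H/ACA sum was 7283 in MEF, 37018 on day 1 and 35219 on day 8. The Cajal body sum was 20909 in MEF, 211018 on day 1, 13459 on day 4, 208590 in iPSC and 227874 in ESC. Both classes thus shared the high day 1, and the Cajal body RNAs had their lowest sum on day 4.

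A few members made most of the signal. Snord93, a guide of 18S rRNA, held 22.04% of the summed member FPKM in MEF, 19.8% on day 1, 36.7% on day 8, 30.2% in iPSC and 27.8% in ESC. Its level was 432547 FPKM in MEF, 4308900 in iPSC and 2936490 in ESC, and the 8 days of the course lay between 1210990 and 2782400. An entry named Mir3096 was 98.6% identical to Snord93 and itself at 244917 FPKM in MEF and 1400700 on day 8, so the division of reads between these loci is uncertain. Snord57, a guide of 18S rRNA within Nop56, was at 168157 FPKM in MEF, 720145 on day 1, 169265 on day 4, 551511 on day 8, 1584130 in iPSC and 1170360 in ESC. Nop56 encodes a protein of the C/D particle itself. Snord69, a guide of 28S rRNA within Gnl3, the gene of nucleostemin, was at 44885 FPKM in MEF, 1451620 in iPSC and 1103660 in ESC, and the 8 days lay between 234380 and 625549. Both lines therefore lay above every library of the course for Snord57 and Snord69. Snord99, a guide of 28S rRNA within Snhg12, was not highest in the lines. Its level was 192052 FPKM in MEF, 174885 on day 1, 575543 on day 2, 481558 on day 8, 275183 in iPSC and 268666 in ESC. Of the 70 members, 28 were above every library of the course in both lines (40.0%, against 12.3% of all transcripts tested), and 66 were above MEF in both (94.3%, against 54.5%). Scaled to the upper quartile these numbers were 13 and 50, and scaled to the member sum 6 and 35.

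**Figure D2:**
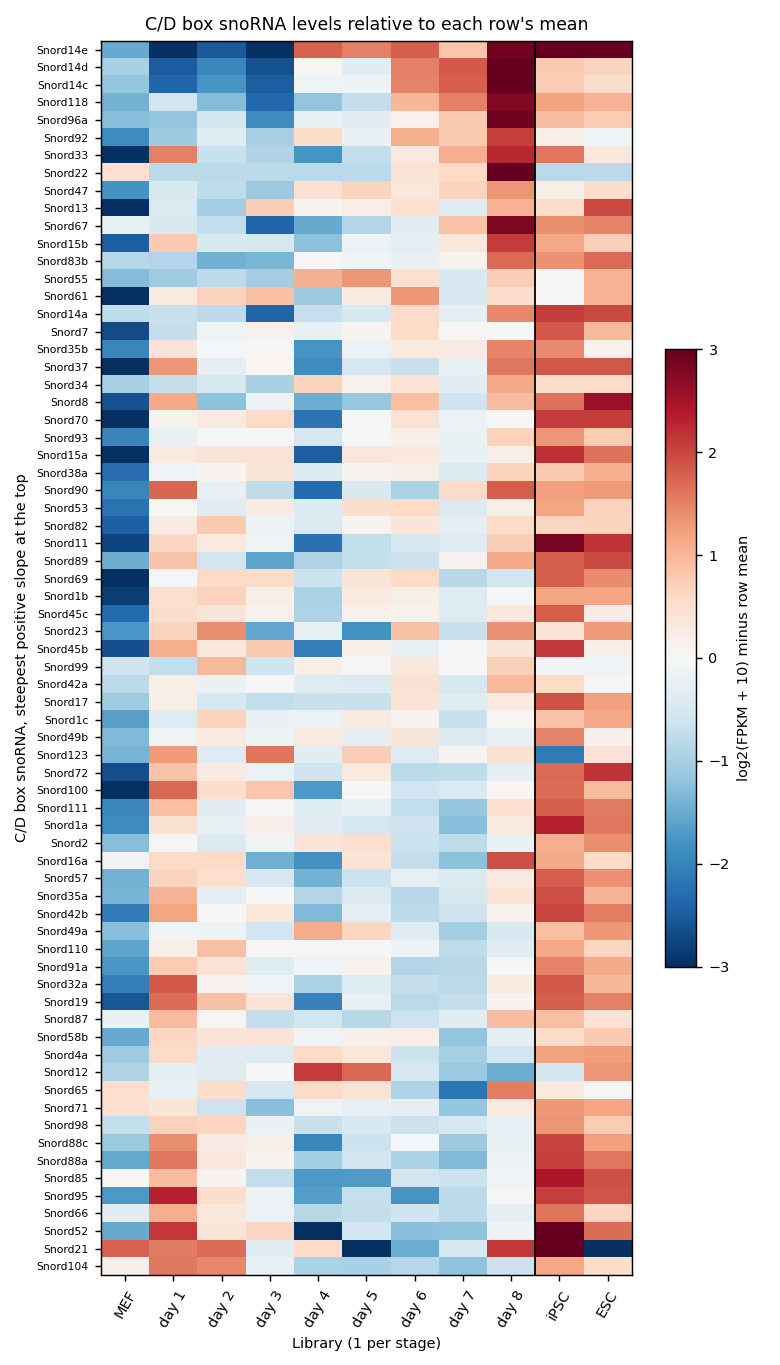
Levels of the 70 C/D box snoRNAs as log2(FPKM + 10) minus the member's mean over 11 libraries, ordered by slope over the course, with colours saturating at 3 above and below. In the values as deposited MEF was the lowest of the 11 libraries for 43 members (61.4%, against 24.3% of all transcripts). After scaling to the upper quartile it was the lowest for 13 (18.6%, against 11.2%). Day 8 was the highest of the course for 26, a number not counted over all transcripts.

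The course from MEF to day 8 was tested for a trend across all 1419 transcripts with a mean of at least 10 FPKM. With limma and Benjamini-Hochberg adjustment over all of them, 7 members (10% of 70) had a rising slope at an adjusted p under 0.05, where 12.5% of all transcripts tested did. No member fell, where 10.6% of all transcripts did. At an unadjusted p under 0.05 limma gave 13 rising members (18.6%, against 20.2% of all transcripts) and 1 falling (1.43%, against 16.1%). The share of rising members was thus close to that of all transcripts. The median slope, the change in log2(FPKM + 10) per day, was 0.11 over the members and 0.02 over all transcripts tested. Of the 70 member slopes, 51 were above 0 (72.9%, against 55.1% of all transcripts). The 7 were Snord14d, Snord14c, Snord118, Snord96a, Snord92, Snord47 and Snord83b. The number moved with scaling and with the last days. With libraries scaled to their miRNA sum 17 members rose, with the upper quartile 4 and with the member sum 3. Without day 8, 3 rose, and without days 7 and 8, 1 did. Of all 1419 transcripts, 312, 182 and 112 rose under these scalings in turn. Without day 8 the number over all transcripts was 142, and without days 7 and 8 it was 181, against 177 with all 9 libraries. Snord118, Snord96a and Snord83b were not called after scaling to the upper quartile or the member sum, nor Snord47 after scaling to the member sum. With quantile normalization Snord118 and Snord83b were not called.

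The U14 copies within Hspa8 had the steepest called slopes. U14 base-pairs with 18S rRNA in its precursor and is needed for its release. Snord14c was at 12122 FPKM in MEF, 5227, 7936 and 4830 on days 1 to 3, 24908, 24422, 76099, 94385 and 294356 on days 4 to 8, 45658 in the iPSC line and 39181 in ESC. Its near-identical neighbour Snord14d was at 13689 FPKM in MEF, 4719, 6841 and 4385 on days 1 to 3, 27915, 20966, 76389, 95621 and 301368 on days 4 to 8, 45711 in the iPSC line and 42353 in ESC. Both were thus below MEF on days 1 to 3, when most members were above it, and higher on day 8 than in any other library. Their slopes were 0.66 ± 0.13 (log2 per day, SE, 9 libraries; limma adjusted p = 0.00638) for Snord14c and 0.67 ± 0.14 (limma adjusted p = 0.00921) for Snord14d.

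Snord14e, the third copy of Hspa8, had a steeper slope that did not pass, 0.95 ± 0.31 (limma adjusted p = 0.0529). It passed under 6 of 21 alternative settings, with adjusted p between 0.0236 (pseudocount of 100) and 0.0436 (without day 3). It was at 352 FPKM in MEF, about 0 on days 1 and 3, 171 on day 2, and 3514, 2963, 3576, 1834 and 7762 on days 4 to 8. Unlike Snord14c and Snord14d it was highest in the lines, at 17996 FPKM in iPSC and 23963 in ESC. Its MEF value stood for 9.98 reads, so its early course is close to the limit of detection. Snord14a, the copy in Rps13, was low throughout, with 234 FPKM in MEF, 69.4 on day 3, 1121 on day 8, 1766 in iPSC and 1626 in ESC, and its slope of 0.24 ± 0.11 did not pass (limma adjusted p = 0.151).

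Among the other processing RNAs, Snord118 rose as well. Snord118 is U8, which acts in the maturation of 5.8S and 28S rRNA and has its own promoter. It was at 2921 FPKM in MEF, 5342, 3169, 1526, 3456 and 4779 on days 1 to 5, 15825, 22546 and 54482 on days 6 to 8, 18265 in the iPSC line and 16243 in ESC. The 3 last days stood above all earlier libraries. The slope was 0.49 ± 0.13 (limma adjusted p = 0.0253), and it was 0.37 without day 8 (limma adjusted p = 0.125). Without day 6 or day 7 the adjusted p was 0.0526 and 0.0643. A 95.6% identical copy, Gm24208, was between 17.8 and 361 FPKM.

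Snord22 (U22), which lies in the noncoding host Snhg1 and acts in 18S rRNA processing, stood for 43.9 reads (312 FPKM) on day 8 and at most 2.49 in any other library. Its slope of 0.36 ± 0.17 did not pass (limma adjusted p = 0.154), while its curve did (limma F-test, adjusted p = 0.0041), and that call was lost without day 8 (adjusted p = 0.0949). Snord13 (U13), which has no host gene, was at 114 FPKM in MEF, 1638 in iPSC and 4473 in ESC, with the days between 542 and 2326 and a slope of 0.33 ± 0.12 (limma adjusted p = 0.0803). Of the 7 processing RNAs, 3 rose by the slope test and 0 fell, with a median slope of 0.49. For comparison, 2 of the 32 guides of 28S rRNA rose (median slope 0.05), as did 0 of the 16 guides of 18S rRNA (median slope 0.07). U14 is also known to guide methylation of 18S rRNA, and with its 4 copies counted there as well, 2 of 20 guides of 18S rRNA rose (median slope 0.12). The processing list includes the near-identical Snord14c and Snord14d, and differences between the role lists were not tested.

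The other risers were 3 methylation guides and Snord83b. Snord96a, a guide of 5.8S rRNA within Rack1, was at 14521 FPKM in MEF, 15520, 23687, 9650, 30529, 27960, 39104 and 61346 on days 1 to 7, 261881 on day 8, 66880 in iPSC and 60567 in ESC. Its slope was 0.43 ± 0.11 (limma adjusted p = 0.0226), and 0.28 without day 8 (limma adjusted p = 0.103). Day 8 alone stood far above the rest. Snord92, a guide of 28S rRNA in an intron of Wdr43, which encodes a factor of ribosome assembly, was at 668 FPKM in MEF, 1163, 1915, 1239, 3652, 2160, 5263, 4246 and 10446 on days 1 to 8, 2803 in the iPSC line and 2258 in ESC. Its slope was 0.42 ± 0.08 (limma adjusted p = 0.00674). Without days 7 and 8, Snord92 was the only member still called (limma adjusted p = 0.045). Snord47, a guide of 28S rRNA and the only member within the noncoding host Gas5, was at 8990 FPKM in MEF, 22372, 18224, 14305, 42520, 48964, 39263, 48924 and 77004 on days 1 to 8, 35104 in the iPSC line and 44585 in ESC. All 5 libraries of days 4 to 8 were above those of MEF to day 3. The slope of Snord47 was 0.33 ± 0.08 (limma adjusted p = 0.0179), and its adjusted p was 0.0517 without MEF and 0.0593 without day 8. Snord83b, with no assigned target, in an intron of the ribosomal protein gene Rpl3, was at 15899 FPKM in MEF, 15863, 10714, 11260, 28648, 27584, 24689 and 31245 on days 1 to 7, 94306 on day 8, 74479 in iPSC and 93795 in ESC. Its slope of 0.28 ± 0.09 (limma adjusted p = 0.0479) was called in 1 of the 9 fits made with 8 of the libraries. Snord14c, Snord14d and Snord92 were called in all 9.

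**Figure D3:**
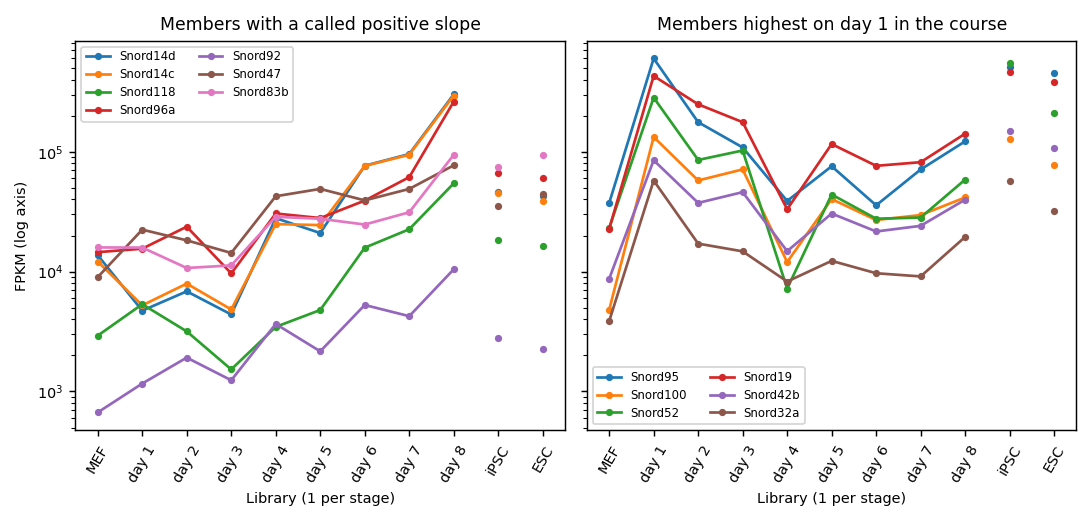
FPKM (log axis) by library for the 7 members with a called rising slope (left) and for 6 members that were highest on day 1 within the course (right), the latter chosen after their values were seen. Snord14c had 4830 FPKM on day 3 and 294356 on day 8, whereas Snord95 had 37268 in MEF and 600417 on day 1.

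A curve with day and day squared was called by limma's F-test in 10 members (14.3%), where 32.6% of all transcripts tested were called. These were the 7 risers and, by the curve alone, Snord22, Snord67 and Snord7. Without MEF 21 members were called, and without day 8 5 were. Snord67, a U6 guide within Ckap5, was at 495 FPKM in MEF, 103 on day 3, 1067 on day 7, 4155 on day 8, 1554 in iPSC and 1645 in ESC (curve adjusted p = 0.00289 by limma, and 0.0647 without day 8). Snord7, a U6 guide, was at 508 FPKM in MEF, 12042 in iPSC and 6505 in ESC, with the days between 2017 and 4999 (curve adjusted p = 0.0256 by limma, and 0.305 without MEF). The curve call of Snord7 was also lost after scaling to the upper quartile or the member sum and with quantile normalization. The third U6 guide, Snord8, was listed at 0 in MEF and stood for at most 9.93 reads on any day of the course.

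At the other end, Snord104 had the lowest slope. It guides 28S rRNA methylation, has no host gene and was the fourth most abundant member. It was at 419853 FPKM in MEF, 1132180, 1032130, 323365, 196826, 193409, 209109, 164200 and 243661 on days 1 to 8, 842271 in the iPSC line and 546830 in ESC. Days 1 and 2 stood above MEF and days 3 to 8 below it. The slope of -0.28 ± 0.10 did not pass (limma adjusted p = 0.0774). It passed as a fall under 3 of 21 alternative settings, with adjusted p of 0.0408, 0.0122 and 0.0291 under limma's trend and robust options, scaling to the member sum and scaling to the upper quartile.

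The first day after induction was compared with MEF without a test, since each had 1 library. On day 1, 36 members (51.4%) were at least 4-fold higher than in MEF on the log2(FPKM + 10) scale, where 21.6% of all transcripts were. Just 1 member, Snord14e, was 4-fold lower (1.43%, against 6.48% of all transcripts), and as it was at about 0 on day 1 no fold is given. The median difference was 2.11 (log2) over the members and 0.41 over all transcripts. At any size of difference, 60 of 70 members were higher on day 1 (85.7%, against 55.5% of all transcripts). Snord100, a guide of 18S rRNA within the ribosomal protein gene Rps12, had the largest difference, from 4784 FPKM in MEF to 132740 on day 1 (4.79 on the log2 scale). Snord95, a guide of 28S rRNA within Rack1, went from 37268 to 600417 FPKM (4.01), and Snord19, within Gnl3, from 22643 to 429063 (4.24). On day 2 the 3 were at 57575, 176363 and 248656 FPKM, lower than on day 1 and higher than in MEF. Scaled to the upper quartile of each library, 18 members were 4-fold higher on day 1 and 4 lower, with a median of 0.86. Scaled to the member sum, 7 were higher and 9 lower. Of the 1419 transcripts tested, 217 were higher and 238 lower under the first scaling, and 161 and 361 under the second.

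Day 4 set some members apart from both neighbouring days. Compared with both of its neighbours, day 4 was lower for 38 members (54.3%, against 17.5% of all transcripts tested) and higher for 17 (24.3%, against 40.7%). Scaled to the miRNA sum, to the upper quartile and to the member sum, 43, 34 and 30 members were lower and 11, 21 and 26 higher. Of all transcripts tested, 23.1%, 17.6% and 13.3% were lower under these scalings in turn, and 32.3%, 41.9% and 55.5% higher. Under the member sum the members' own shares were 42.9% lower and 37.1% higher. The median departure of day 4 from the mean of days 3 and 5 was -0.37 (log2) over the members and 0.32 over all transcripts, and with scaling to the member sum -0.016 and 0.67. Snord52, a guide of 28S rRNA, had 102367 FPKM on day 3, and 7208 and 43956 followed on days 4 and 5, values that stood for 2023, 134 and 559 reads. Snord45b, a guide of 18S rRNA within Rabggtb, was at 168758, 23047 and 108145 FPKM on the same days, and Snord15a, a guide of 28S rRNA within Rps3, at 9227, 1218 and 8539. Snord12, a guide of 28S rRNA within the noncoding host Zfas1, differed in the other direction, from 37130 FPKM on day 3 to 159285 on day 4 and 122177 on day 5. The members named here were chosen after their values were seen. By annotated length, the median departure was -0.38 (log2) for the 26 members under 75 bases, -0.38 for the 23 of 75 to 89 bases and 0.00 for the 21 of 90 bases or more. The length classes overlapped widely. Day 4 was 1 library, and whether its departure belongs to the stage or to the library cannot be told apart.

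**Figure D4:**
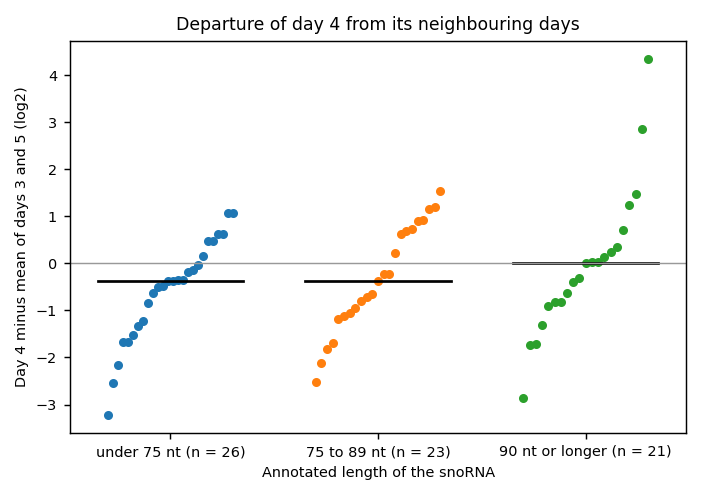
Difference of day 4 from the mean of days 3 and 5 in log2(FPKM + 10), 1 point per C/D box snoRNA, by annotated length, with a bar at each class median. Medians were -0.38, -0.38 and 0.00, and points of every class lay on both sides of 0.

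On day 8, 68 members were higher than on day 7 and 2 were lower (97.1% higher, against 66.7% of all transcripts tested). The median difference was 0.95 (log2) over the members and 0.36 over all transcripts. Scaled to the miRNA sum or to the upper quartile, 65 members were higher on day 8 (92.9%, against 54.3% of all transcripts under each). Scaled to the member sum, 39 were (55.7%, against 34.5%). Snord65, within the noncoding host 2410006H16Rik, had the largest step, from 106.6 to 1513 FPKM. These values stood for 3.01 and 40.0 reads, so the size of this step is uncertain. Snord12 had the lowest, from 16952 to 13214.

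Both established lines stood above MEF for most members. At least 4-fold higher in both lines were 48 members (68.6%), where 29.7% of all transcripts were, and 0 members were 4-fold lower (7.75% of all transcripts). With 1 library of each there was no test. The median difference from MEF was 3.07 (log2) in iPSC and 2.70 in ESC over the members, and 1.36 and 0.98 over all transcripts. Snord11, a guide of 18S rRNA in an intron of Nop58, was at 2160 FPKM in MEF, 105523 in iPSC and 66256 in ESC. Snord70, in another intron of Nop58, was at 2574 FPKM in MEF, 102901 in iPSC and 102660 in ESC. Nop58 encodes a protein of the C/D particle. Snord37, a guide of 28S rRNA within the elongation factor gene Eef2, was at 1300 FPKM in MEF, 41258 in iPSC and 41155 in ESC. At the lower end of those past 4-fold, Snord58b, within the ribosomal protein gene Rpl17, was at 2391 FPKM in MEF, 9933 in iPSC and 11797 in ESC. Snord4a, within Rpl23a, was at 4026, 19374 and 19984 FPKM.

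The count depended strongly on scaling. Scaled to the upper quartile of each library, 12 members were 4-fold higher in both lines and 2 lower, with medians of 1.24 in iPSC and 0.83 in ESC, while the median of all transcripts moved to 0.00. With quantile normalization 14 were higher and 2 lower, and scaled to the sum of the members 8 were higher and 2 lower. Of the 1419 transcripts tested, 205, 215 and 155 were higher under these scalings in turn, and 278, 222 and 370 lower. The excess of higher members over all transcripts was thus far smaller than in the values as deposited. Scaled to the miRNA sum, the medians were 3.02 and 2.67.

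Against day 8, few members differed at least 4-fold in both lines, and more did at 2-fold. At 2-fold, 23 members were higher in both lines (32.9%, against 27.8% of all transcripts) and 8 lower (11.4%, against 12.9%). Snord85, Snord70 and Snord72 were at least 4-fold higher in both lines (4.29%, against 9.73% of all transcripts). Snord14c, Snord14d and Snord22 were at least 4-fold lower (4.29%, against 6.06%). Snord85 was at 32854 FPKM on day 8, 189558 in iPSC and 133863 in ESC, and Snord72, within Rpl37, at 4952, 19905 and 27409. Snord14c differed from day 8 by -2.69 (log2) in iPSC and -2.91 in ESC. For Snord22 no fold is given, since it was at about 0 in both lines. The higher calls did not hold under scaling to the miRNA sum, to the upper quartile or to the member sum or under quantile normalization, which left 0 each. Day 8 was above both lines for 21 members and below both for 43, numbers not counted over all transcripts or under another scaling. The median differences of iPSC and ESC from day 8 were 0.96 and 0.78 (log2) over the members and 0.61 and 0.46 over all transcripts. Over the members they were 0.21 and -0.0067 with scaling to the upper quartile, and 0.18 and 0.026 to the miRNA sum. Between the lines, iPSC was above ESC for 47 of 70 members (67.1%, against 55.3% of all transcripts), with a median difference of 0.26 (log2) over the members and 0.15 over all transcripts. Scaled to the member sum, iPSC was above ESC for 30 members (42.9%, against 39.5% of all transcripts). The median was then -0.16 over the members and -0.067 over all transcripts.

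**Figure D5:**
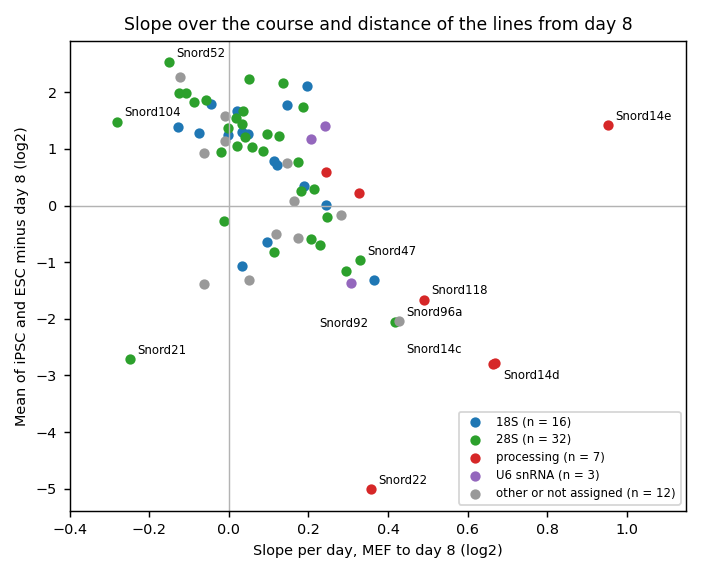
Slope per day from MEF to day 8 (horizontal) and mean difference of iPSC and ESC from day 8 (vertical), both in log2 units, for 70 C/D box snoRNAs coloured by role. Both axes use the day 8 library, so they are not independent. Snord14c, Snord14d, Snord118, Snord96a and Snord92 had called slopes and lay below 0 on the vertical axis.

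SnoRNAs from the same host gene did not always move together. Within Rack1, Snord95 exceeded Snord96a by 5.27 (log2) on day 1 and by 1.36 in MEF, and was below it by 1.10 on day 8 (log2 ratio -1.10). In the lines the ratio was 2.93 in iPSC and 2.91 in ESC. The ratio of these RNAs of 1 host gene thus spanned 6.37 log2 units over the 11 libraries. Snord95 has a 91.2% identical copy, Gm25296, at 27877 FPKM in MEF and 434556 on day 1, so some of its reads may belong there. Within Rpl13a, the gene of a ribosomal protein, Snord33 exceeded Snord34 by 4.96 on day 1 and by 0.28 on day 4, a span of 4.67. Snord33 shares 30 bases with the miRNA gene Mir5121 on the same strand. Within Gnl3 the log2 ratio of Snord19 to Snord69 lay between -3.04 on day 6 and 0.11 on day 1, and within Wdr43 that of Snord53 to Snord92 between 0.26 on day 8 and 3.40 on day 3. Within Hspa8 the near-identical Snord14c and Snord14d spanned 0.40. Against Snord14e they spanned 8.32 and 8.06, the widest of all pairs, with Snord14e at about 0 on days 1 and 3. The log2 ratio of Snord14c to Snord14e was 5.68 on day 7 and 0.71 in ESC. A ratio within a library does not depend on the scaling of that library. What sets these ratios was not tested.

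The other classes of modification guide gave different counts over the same course. Of the 29 H/ACA box snoRNAs tested, 8 rose and 0 fell by limma's slope test, with a median slope of 0.17. Of the 9 Cajal body RNAs, 0 rose and 2 fell, with 1 rising and 2 falling at an unadjusted p under 0.05. On day 1, 9 of the 29 H/ACA snoRNAs and 3 of the 9 Cajal body RNAs were at least 4-fold above MEF, and the same numbers, 9 and 3, were 4-fold above MEF in both lines. The differences between the classes were not tested.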

How the data were processed

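Small RNA libraries (TruSeq kit, gel size selection, per the labels) were deposited by the authors as 1 table of FPKM with a column for each of 11 libraries. Listed in the submitters' processing notes are the build mm10 and the tools Bowtie2 2, CASAVA 1.8.2 and Cufflinks 2.2.1. How reads matching several loci were shared, and whether strand was used, is not given in the sources used here. Full-length snoRNAs and fragments of them cannot be told apart. IDs were matched to GENCODE vM21, where 3712 were found and 147 not.

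Values were analysed as log2(FPKM + 10), a scale that understates changes of low RNAs, over transcripts with a mean of at least 10 FPKM. A slope per day, and separately a curve (F-test of both coefficients, day and its square), was fitted over 9 libraries, with MEF as day 0, in limma 3.58.1 (R 4.3.3; two-sided, empirical Bayes, Benjamini-Hochberg, threshold 0.05) and tested on simulated data. Single libraries were compared by a 4-fold difference without a test. Read numbers are implied by low values with an assumed fragment length of 200 ± 80 bases (92.0% of 4513 low values whole within 0.05 read), and no count test was run. The members, role lists and tests were chosen with earlier results of these data known. Named members were the 12 highest means, all called slopes and curves, members of Gas5 and Snhg1, the processing and U6 lists, and the 6 largest and 6 smallest line differences past 4-fold. Others named were chosen after their values were seen.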

Additional observations from a re-analysis of the deposited data

How the results depend on the processing

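With 1 library per stage, leaving out a library was possible only for the fits over the course. These left between 3 and 8 rising members, 0 falling members, and between 5 and 21 curves, the fewest curves without day 8 and the most without MEF. No paired analysis was possible because each stage had 1 library.

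Rising members numbered 17 with scaling to the miRNA sum, 4 to the upper quartile and 3 to the member sum, and 1 without days 7 and 8. Falling members numbered 1 (Snord104) with scaling to the upper quartile or the member sum and with limma's trend and robust options. Over all transcripts 219, 170 and 163 fell under these in turn. Curves numbered 18 with scaling to the miRNA sum, where 503 of all transcripts were called. They numbered 0 without days 7 and 8, where 218 of all transcripts were called. In days 3 to 8 alone they numbered 0, and limma called 0 of all transcripts. Fewer libraries were fitted in both of these last settings.

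For the lines against MEF, higher members numbered 12 (upper quartile), 14 (quantile normalization) and 8 (member sum). Lower members numbered 2 under each of these, and 1 with a pseudocount of 1 or a 2-fold threshold. For day 1 against MEF, higher members numbered 18, 16 and 7 under the same scalings and lower members 4, 3 and 9. Lower members numbered 2 with a pseudocount of 1 and 4 at 2-fold. For the lines against day 8, higher members numbered 0 under all 4 scalings and 23 at 2-fold. Lower members numbered 8 (miRNA sum), 7 (upper quartile), 6 (quantile normalization), 6 (member sum) and 8 (2-fold). Over all transcripts these numbers were 150, 135, 111, 117 and 183. The cause of these changes was not tested.

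Without days 7 and 8 the slopes reversed to -0.0096 for Snord22 and -0.070 for Snord67. Scaled to the member sum, the difference of iPSC from MEF reversed for Snord110 (-0.14), Snord118 (-0.22), Snord2 (-0.50), Snord49a (-0.71), Snord4a (-0.59), Snord58b (-0.80), Snord83b (-0.63), Snord92 (-0.79) and Snord96a (-0.66). That of ESC reversed for Snord110 (-0.22), Snord47 (-0.12), Snord4a (-0.12), Snord55 (-0.087), Snord58b (-0.13) and Snord96a (-0.37). With quantile normalization that of iPSC reversed for Snord92 (-0.11). Over the 5 scalings, the slope kept its sign in 44 of 70 members, above 0 in 38 and below 0 in 6. Depth limits 15 members that stood for fewer than 10 reads in some library, among them Snord61 in 11 libraries, Snord22 in 10, Snord8 in 9, Snord16a in 8 and Snord23 in 7. The scalings of the counts without a size threshold (day 1, day 4, day 8, the lowest library, and the lines) and the count of U14 as a guide were chosen after seeing the data.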

Other observations

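Snord21, a guide of 28S rRNA, came close to 0 in 2 libraries. It stood for 20.4 reads in MEF, 18.9 on day 1, 22.2 on day 2, 7.34 on day 3, 13.7 on day 4, about 0 on day 5, 2.32 on day 6, 7.74 on day 7, 45.7 on day 8, 63.1 in iPSC and about 0 in ESC. Snord61, a guide of 18S rRNA, was listed at 0 in MEF and stood for at most 5.03 reads in any library. The paired copies Snord88a and Snord88c were 94.4% identical, and Snord1b and Snord1c 97.4%, so their separate values are uncertain. Annotated antisense or opposite-strand genes overlapped Snord35b, Snord42a, Snord4a and Snord8.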
